A study of Homo sapiens with 18 samples.

Results

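The genes described here are 40 genes of the integrated stress response that are reported targets or partners of the transcription factor ATF4, out of 60658 gene IDs measured. They were chosen by name and cover transcription factors, feedback genes, amino acid synthesis, one-carbon metabolism, amino acid transport, secreted factors and a small mixed group of receptors and tRNA-related genes; tRNA synthetases of the cytosol were left out of the set. The genes, and the further lists used below, were chosen with earlier results of these data known. Counts set against shares of all genes therefore describe these genes and are no independent test of them. RNA was sequenced from 18 plates of human leukaemia cells. The 9 plates of B11 were grown for 5 days at 0, 1 or 10 ug/ml doxycycline, 3 plates per dose, and the 9 plates of THP1 were grown at the same doses in the same way. THP1 is an acute myeloid leukaemia line of monocytic type labelled as carrying heterozygous NRAS-G12D. B11 is a single subclone of THP1, labelled heterozygous NRAS-G12V, that holds a doxycycline-inducible, CRISPR-resistant NRAS with a G12V mutation together with GFP, and that went through Cas9 with a pair of guide RNAs flanking the start codon of NRAS and through puromycin selection. All B11 plates, the untreated ones included, therefore carry the vector, Cas9 and the guides, and THP1 plates carry none of them. Because all plates of a line came from 1 grown-out culture, p-values measure the spread between plates only. In bulk RNA, fewer cells with a transcript and less transcript per cell cannot be told apart.

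The integrated stress response is a shared output of several kinases that phosphorylate the translation initiation factor eIF2. Phosphorylated eIF2 lowers protein synthesis in general while the ATF4 message, which carries upstream open reading frames, is translated more. ATF4 pairs with other basic leucine zipper proteins, among them C/EBP family members, and binds composite sites near genes for amino acid synthesis, amino acid uptake and the shutting off of the response. In leukaemia cells the pathway is known for adapting cells to shortage of amino acids, to misfolded protein and to mitochondrial stress.

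Values are FPKM (fragments scaled to transcript length and to library size, computed by the authors), given per library in the order of replicates A, B and C. A change is given on the log2(FPKM + 1) scale beside its standard error (SE), from a limma fit of all 18 libraries, and a gene is said to have risen or fallen where its p adjusted over all genes by Benjamini-Hochberg was under 0.05. The offset of 1 understates changes of genes at low levels. Counts at an unadjusted p under 0.05 were made only for the set and for the further lists. They have no share of all genes to stand against, since every share given here is of adjusted calls. Of the 40 genes, 38 reached 1 FPKM in at least 3 libraries and were tested, among 17555 genes tested in all. FGF21 (a hormone-like secreted factor) was listed at 0 in all libraries but one, B11 at 1 ug/ml replicate B, where it was at 0.0512 FPKM. DDR2 (a collagen receptor) lay between 0 and 1.75 FPKM, and neither of these genes was tested.

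Depth was estimated at 11.1 to 16.02 M fragments per library. In B11 at 1 ug/ml, 1 gene ID without a name was at 76850 FPKM in replicate B and 42501 in replicate C. These values were 6.51% and 3.76% of the summed FPKM of those libraries, and the ID was at 0 in replicate A and in all other groups. NRAS was at 19.8, 21.98 and 21.1 FPKM in untreated B11, at 24.4, 23.7 and 23.3 FPKM at 1 ug/ml and at 28.0, 27.7 and 28.2 FPKM at 10 ug/ml, and between 21.5 and 25.5 FPKM in the THP1 libraries. With 1 value per gene ID, transcripts of the edited endogenous gene and of the inducible NRAS cannot be told apart here. How much of the inducible NRAS enters these values was not tested, so they do not measure its induction. The monocytic lineage genes PTPRC, SPI1, CD33, CEBPA and LYZ were detected in all 18 libraries, while the T cell gene CD3E and the erythroid gene HBB were at 0 in all 18 and the epithelial gene EPCAM was at 0 in 15. The fibroblast gene COL1A1 stayed at or below 3.64 FPKM, and PECAM1, an endothelial gene that monocytes also express, lay between 121 and 387 FPKM. Of 10 monocytic markers, 3 rose and 5 fell in B11 at 1 against 0 ug/ml, and their summed level was 3261 to 4167 FPKM in untreated B11, 1202 to 1285 at 1 ug/ml, 1001 to 1092 at 10 ug/ml and 1359 to 1762 in THP1. At 0, 1 and 10 ug/ml in B11, LYZ (lysozyme) averaged 2781, 448 and 294 FPKM and CSF1R (a macrophage growth factor receptor) averaged 174, 43.5 and 14.1 FPKM. At the same doses ITGAM (an integrin of myeloid cells) averaged 3.37, 27.9 and 11.3 FPKM, FCGR1A (an Fc receptor) 21.4, 68.7 and 48.8 FPKM and CD14 (a receptor for endotoxin) 0.841, 6.03 and 0.976 FPKM. The part of these markers in the changes below was not tested.

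Some of the genes hold, in the region just upstream of a start site or shortly after it, the letters TGATGNAA, a common form of the C/EBP-ATF response element. A search of RefSeq promoter windows (GRCh38.p14, 250 bases before to 50 after each annotated start, both strands, so that TTNCATCA counts as a match) found windows for 32 of the 40 genes. Of those 32, 11 (34.4%) held the letters in at least 1 window, against 1217 of 27305 genes in the table (4.46%). The narrower form TGATGCAA, which is part of the same search, occurred in 8 of the 32 (25%) and in 295 of 27305 genes (1.08%). The set was chosen by reported links to ATF4, which binds such elements, so these shares are no test of the set. The 32 genes had 52 windows and the 27305 genes had 35116, so windows per gene were uneven. DDR2 and FGF21, whose expression was not tested, are among the 11. The windows of 6 genes that held a match and rose in B11 at 1 ug/ml are printed to show where the letters lie, as they run 5′ to 3′ on the strand of the gene, with the match in capitals. They belong to ASNS (chr7:97872359-97872658, minus strand), SLC3A2 (chr11:62881449-62881748, plus strand), SLC7A1 (chr13:29595639-29595938, minus strand), MTHFD1L (chr6:150866236-150866535, plus strand), SLC1A4 (chr2:64989149-64989448, plus strand) and CHAC1 (chr15:40953221-40953520, plus strand).
ASNS: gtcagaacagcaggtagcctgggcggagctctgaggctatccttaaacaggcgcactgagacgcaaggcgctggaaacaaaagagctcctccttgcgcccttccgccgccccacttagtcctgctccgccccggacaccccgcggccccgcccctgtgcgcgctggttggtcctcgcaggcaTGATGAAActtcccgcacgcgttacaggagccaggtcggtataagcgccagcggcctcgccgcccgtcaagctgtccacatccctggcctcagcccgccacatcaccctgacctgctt
SLC3A2: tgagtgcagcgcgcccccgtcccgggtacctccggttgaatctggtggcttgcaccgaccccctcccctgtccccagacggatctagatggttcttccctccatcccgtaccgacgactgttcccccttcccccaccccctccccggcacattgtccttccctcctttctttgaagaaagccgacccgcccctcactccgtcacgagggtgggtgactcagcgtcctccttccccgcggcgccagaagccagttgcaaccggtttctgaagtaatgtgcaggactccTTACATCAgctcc
SLC7A1: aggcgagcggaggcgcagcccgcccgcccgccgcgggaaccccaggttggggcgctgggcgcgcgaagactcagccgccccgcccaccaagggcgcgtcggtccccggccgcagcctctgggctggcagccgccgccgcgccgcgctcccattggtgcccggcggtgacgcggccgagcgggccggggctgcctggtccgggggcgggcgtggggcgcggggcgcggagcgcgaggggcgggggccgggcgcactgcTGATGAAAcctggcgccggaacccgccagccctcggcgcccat
MTHFD1L: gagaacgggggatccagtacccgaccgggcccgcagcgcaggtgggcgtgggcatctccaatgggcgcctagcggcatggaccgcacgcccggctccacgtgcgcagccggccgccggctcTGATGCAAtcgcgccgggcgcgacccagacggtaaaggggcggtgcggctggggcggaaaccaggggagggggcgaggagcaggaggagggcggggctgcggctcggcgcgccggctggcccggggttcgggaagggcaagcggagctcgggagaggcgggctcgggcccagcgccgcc
SLC1A4: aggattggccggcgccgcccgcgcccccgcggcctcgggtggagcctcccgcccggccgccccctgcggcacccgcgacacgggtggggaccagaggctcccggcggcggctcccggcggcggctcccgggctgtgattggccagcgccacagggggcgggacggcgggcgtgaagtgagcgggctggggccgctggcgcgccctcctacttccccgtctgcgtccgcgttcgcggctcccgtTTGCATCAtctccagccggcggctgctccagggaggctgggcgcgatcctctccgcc
CHAC1: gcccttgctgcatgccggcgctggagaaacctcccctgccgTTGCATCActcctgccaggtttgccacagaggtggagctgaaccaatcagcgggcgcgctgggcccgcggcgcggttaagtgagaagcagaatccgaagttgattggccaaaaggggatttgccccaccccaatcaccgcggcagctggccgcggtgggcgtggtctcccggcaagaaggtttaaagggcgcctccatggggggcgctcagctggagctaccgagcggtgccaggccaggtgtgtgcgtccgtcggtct
The match began 209 bases before the start in CHAC1, 129 in MTHFD1L, 68 in ASNS and 7 in SLC1A4, and 7 bases after it in SLC7A1 and 37 after it in SLC3A2. These positions are from the printed window of each gene. Windows of other MTHFD1L starts held the same letters 90 bases before and 24 bases after the start. ASNS, SLC3A2, SLC1A4 and MTHFD1L also had windows of other starts without a match. ASNS, SLC7A1 and MTHFD1L held the letters in the direction of transcription, and SLC3A2, SLC1A4 and CHAC1 held them on the other strand. A match describes these letters in these windows and shows no binding.

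Across the 18 libraries the set was lowest in untreated B11 and highest in B11 at 1 ug/ml. The highest of the 6 group means was B11 at 1 ug/ml for 33 of the 38 genes tested, and the lowest was untreated B11 for 28. The order of group means was not counted over all genes, so no share stands beside these counts. Summed over the 40 genes, B11 held 1094, 2087 and 1124 FPKM without doxycycline, between 5923 and 6097 FPKM at 1 ug/ml and between 4028 and 4313 FPKM at 10 ug/ml. THP1 held between 2207 and 2306 FPKM without doxycycline, between 2242 and 2335 at 1 ug/ml and between 2886 and 3186 at 10 ug/ml. Of the other 10 genes, 5 were lowest in untreated THP1 and 3 in THP1 at 1 ug/ml. The heat map shows the 40 genes row by row.

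**Figure D1:**
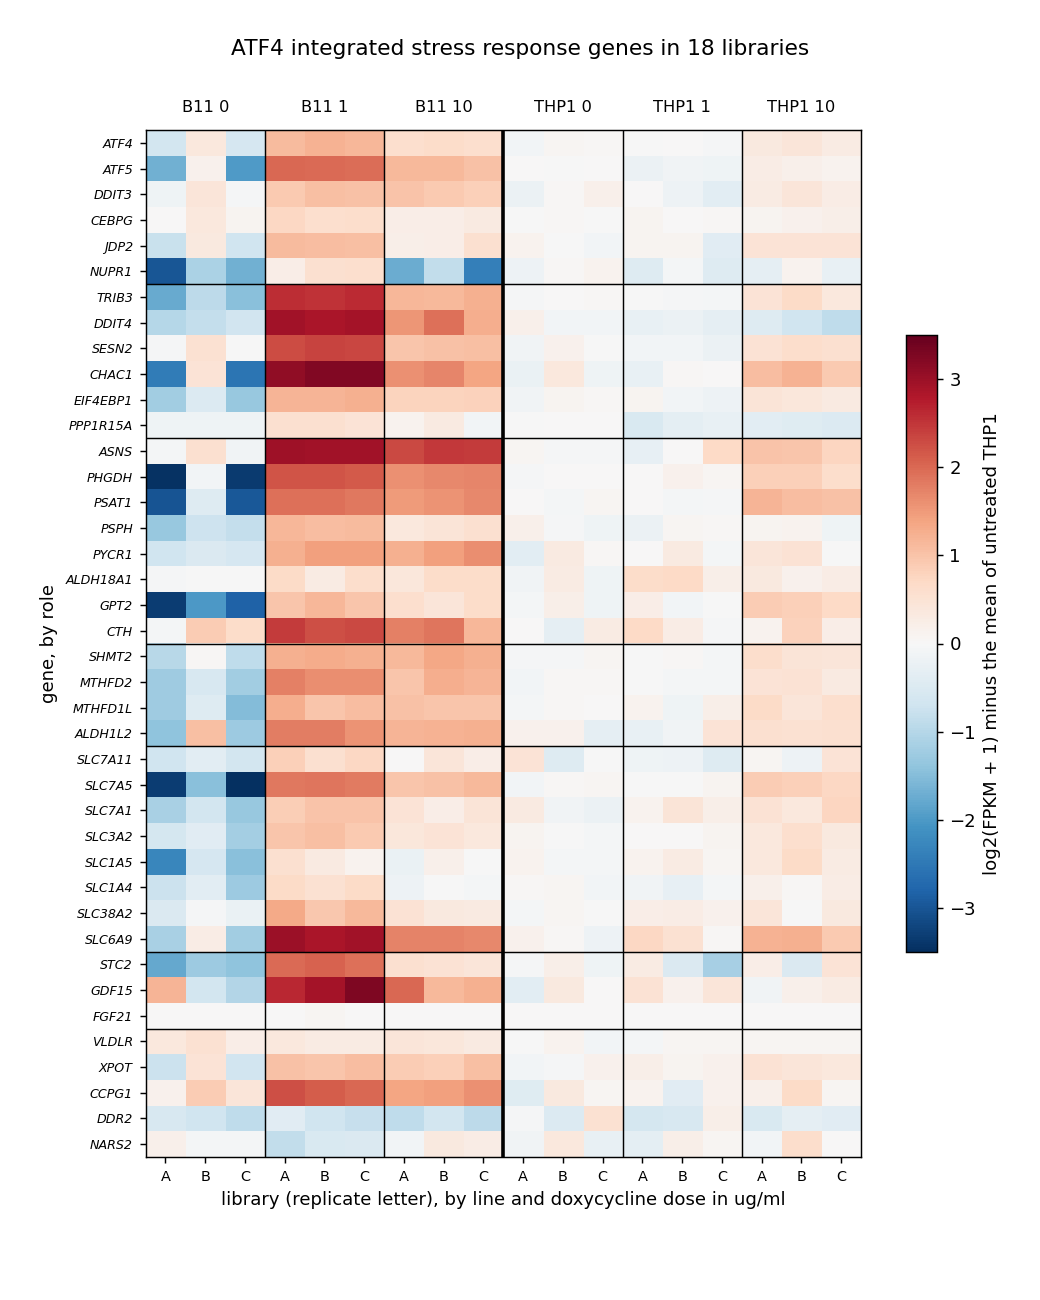
Each row is 1 of the 40 genes, grouped by role from transcription factors at the top to receptors, tRNA handling and others at the bottom, and each column is 1 library, named by line, doxycycline dose in ug/ml and replicate letter; colour is log2(FPKM + 1) minus the mean of the 3 untreated THP1 libraries. Most rows are red in B11 at 1 ug/ml, paler red at 10 ug/ml and blue in untreated B11, where replicate B is less blue than replicates A and C.

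One plate stood apart for these genes. In untreated B11, replicate B was the highest of the 3 plates for 33 of the 38 genes tested (86.8%), against 31.4% of all genes tested. PHGDH (the entry enzyme of serine synthesis) was at 10.99, 121 and 11.8 FPKM in the 3 untreated B11 plates, CHAC1 at 0.327, 9.10 and 0.25 FPKM and ATF5 at 36.9, 133 and 30.0 FPKM. In each case replicate B was the high one and replicates A and C lay close together. The median of the set in replicate B was 0.65 above the mean of the other plates on the log2 scale, and that of all genes was -0.01. In further lists of genes, replicate B was the highest of the 3 plates for 13 of 18 other reported ATF4 targets, for 5 of 18 genes of the ATF6 and IRE1 branches and for 2 of 14 mitochondrial chaperones and proteases. Over all genes, 333 lay at least 1 log2 unit above both other plates in replicate B, close to the 325 in replicate A and 327 in replicate C. This plate enters the spread that the fit shares between groups. Counts over the whole set are therefore also given below from a fit without it, and those by role or list where they moved. The plate was singled out by the values of these same genes, so leaving it out can narrow their spread more than that of genes in general. Shares of all genes from that fit are therefore no even standard for the counts beside them.

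**Figure D2:**
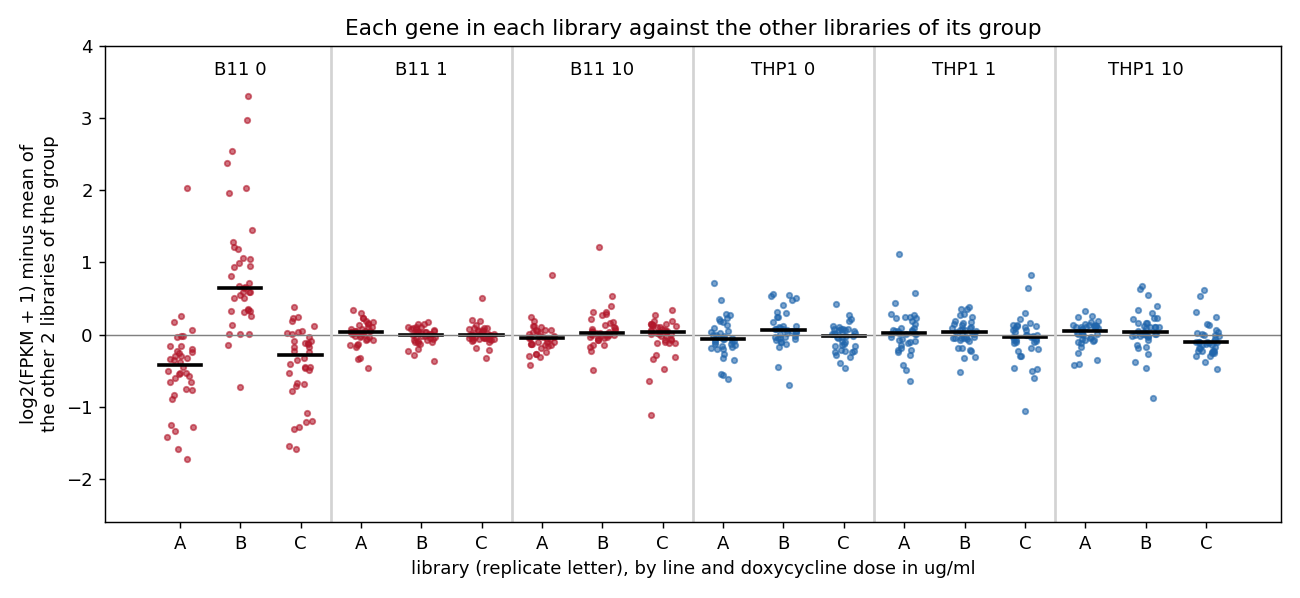
Each point is 1 of the 38 tested genes, plotted as its log2(FPKM + 1) minus the mean of the other 2 libraries of its group, with black bars at the median, for the 18 libraries named by line, doxycycline dose in ug/ml and replicate letter. Replicate B of untreated B11 has its median at 0.65, and the medians of the other libraries outside that group lie between -0.10 and 0.06.

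In B11, the set rose at both doses. Of the 38 genes tested, 36 rose and 1 fell at 1 against 0 ug/ml, where 19.8% of all genes tested rose and 17.3% fell (37.1% called). At 10 against 0 ug/ml the test called 34 genes higher and none lower, against 21.6% of all genes higher and 21.3% lower (42.8% called), and at an unadjusted p under 0.05 limma also gave 34 higher and 0 lower. The median change was 2.03 at 1 ug/ml and 1.42 at 10 ug/ml, and the median over all genes was -0.01 at 1 ug/ml and -0.02 at 10 ug/ml. Without replicate B of untreated B11 the counts were 36 higher and 1 lower at 1 ug/ml, where 18% of all genes were higher and 15.4% lower, and 34 higher and 0 lower at 10 ug/ml, where 20.1% were higher and 19.4% lower. The medians were then 2.20 and 1.63. The same untreated plates stand in both comparisons. Because the set was chosen with earlier results of these data known, the shares of all genes are no independent standard for its counts.

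**Figure D3:**
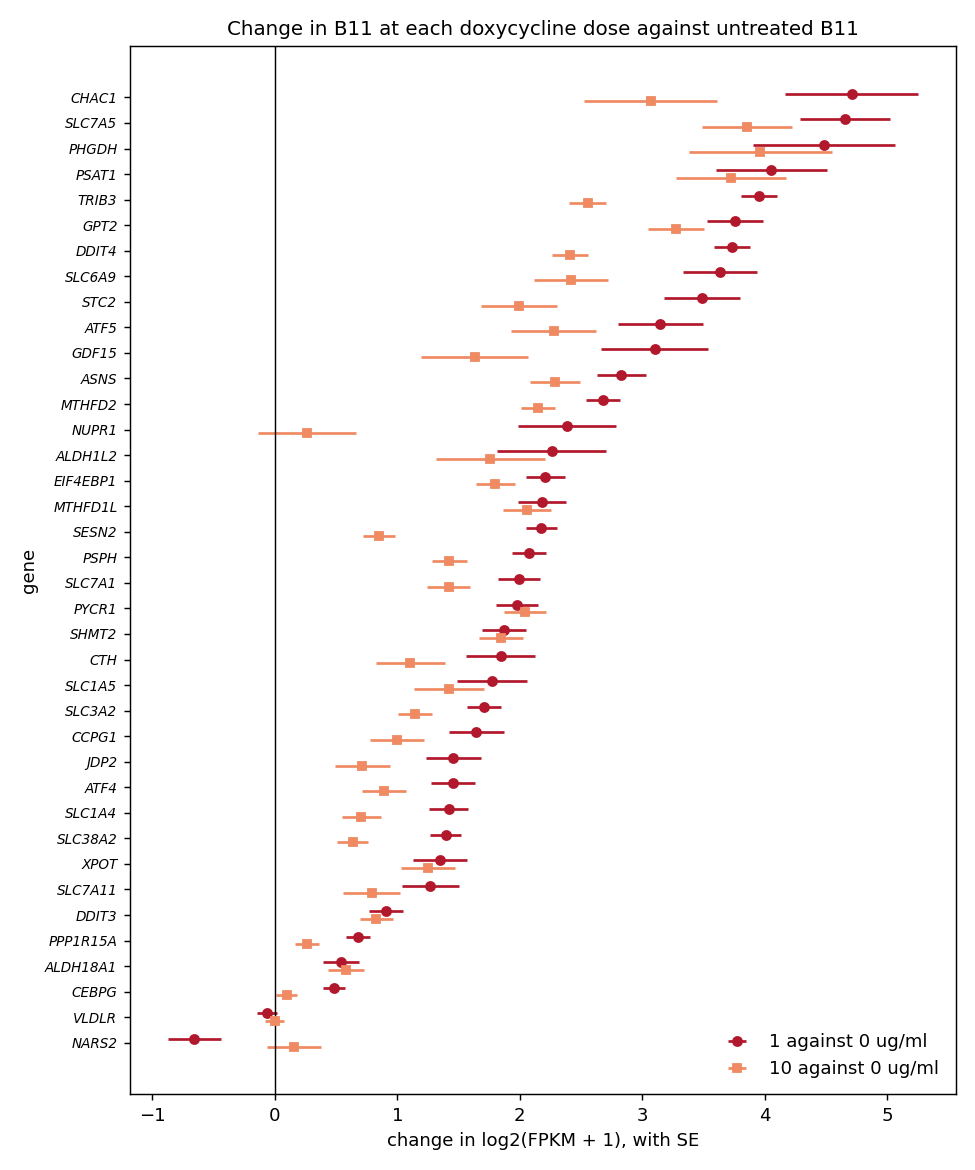
Points are changes of the 38 tested genes in B11 against untreated B11 in log2(FPKM + 1), with SE, circles at 1 ug/ml and squares at 10 ug/ml, ordered by the change at 1 ug/ml. CHAC1 has the largest fitted change at 1 ug/ml (4.71), VLDLR lies at -0.06 and 0.00, and NARS2 lies at -0.66 at 1 ug/ml.

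Among the transcription factors, all 6 rose at 1 ug/ml and 4 rose at 10 ug/ml, or 5 without replicate B of untreated B11. ATF4 (chr22:39519695-39522685, plus strand, GRCh38), the factor that gives the set its name, was at 191, 388 and 199 FPKM in untreated B11, at 651, 698 and 670.1 FPKM at 1 ug/ml and at 451, 467 and 452 FPKM at 10 ug/ml. The plates of both doses lay above all untreated plates, and those at 1 ug/ml above those at 10 ug/ml. ATF4 rose by 1.45 (SE 0.18, adjusted p = 1.4e-05) at 1 ug/ml and by 0.89 (SE 0.18, adjusted p = 0.00092) at 10 ug/ml. Leaving out replicate B of untreated B11, those changes were 1.78 and 1.22.

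ATF5, a related factor that acts with mitochondrial and amino acid stress, was at 36.9, 133 and 30.0 FPKM in untreated B11, at 485, 479 and 468 FPKM at 1 ug/ml and at 264, 268 and 249 FPKM at 10 ug/ml. The 3 groups did not overlap. ATF5 rose by 3.15 (SE 0.35, adjusted p = 4.8e-06) at 1 ug/ml and by 2.27 (SE 0.35, adjusted p = 9e-05) at 10 ug/ml. Its exons share 626 bases with NUP62 on the opposite strand, which averaged 55.6 FPKM in B11 at 1 ug/ml and 43.3 in untreated B11.

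DDIT3, also called CHOP, is the C/EBP-related factor linked to cell death under prolonged stress. It was at 55.0, 82.0 and 59.3 FPKM in untreated B11, at 115, 127 and 125 FPKM at 1 ug/ml and at 122, 115 and 109 FPKM at 10 ug/ml. Both doses lay above the untreated plates and overlapped each other. DDIT3 rose by 0.91 (SE 0.14, adjusted p = 9.4e-05) at 1 ug/ml and by 0.83 (SE 0.14, adjusted p = 0.00018) at 10 ug/ml. It shares 355 exonic bases with MARS, the methionyl-tRNA synthetase gene on the opposite strand, which averaged 639 FPKM in B11 at 1 ug/ml and 249.9 in untreated B11, and the share of its reads in the DDIT3 values was not tested.

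CEBPG, a C/EBP partner of ATF4, moved less. It was at 19.1, 25.1 and 20.5 FPKM in untreated B11, at 32.4, 29.2 and 29.5 FPKM at 1 ug/ml and at 22.5, 22.5 and 23.9 FPKM at 10 ug/ml. The plates at 1 ug/ml stood above the rest, and those at 10 ug/ml lay inside the untreated range. CEBPG rose by 0.48 (SE 0.09, adjusted p = 0.00052) at 1 ug/ml, and its difference at 10 ug/ml was 0.10 (SE 0.09, adjusted p = 0.42), or 0.21 (adjusted p = 0.045) without replicate B of untreated B11.

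JDP2, which represses AP-1 sites, rose by 1.46 (SE 0.22) at 1 ug/ml and by 0.71 (SE 0.22) at 10 ug/ml. NUPR1, a small stress-induced chromatin protein, was at 0.816, 5.64 and 3.52 FPKM in untreated B11, at 16.01, 20.1 and 20.5 FPKM at 1 ug/ml and at 3.35, 6.97 and 1.72 FPKM at 10 ug/ml. At 10 ug/ml its plates overlapped the untreated ones. NUPR1 rose by 2.38 (SE 0.40, adjusted p = 0.00024) at 1 ug/ml, and differed by 0.26 (SE 0.40, adjusted p = 0.64) at 10 ug/ml.

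All 6 feedback and brake genes rose at both doses, with medians of 2.97 at 1 ug/ml and 2.11 at 10 ug/ml. At 10 ug/ml 5 of them rose without replicate B of untreated B11. TRIB3, a pseudokinase that binds ATF4 and AKT, was at 12.03, 22.6 and 15.03 FPKM in untreated B11, at 264, 254 and 271 FPKM at 1 ug/ml and at 97.9, 95.5 and 104 FPKM at 10 ug/ml. The 3 groups were separate. TRIB3 rose by 3.95 (SE 0.15, adjusted p = 3.8e-11) at 1 ug/ml and by 2.55 (SE 0.15, adjusted p = 3.2e-09) at 10 ug/ml.

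CHAC1, which breaks down glutathione, was at 0.327, 9.10 and 0.25 FPKM in untreated B11, at 61.8, 67.5 and 68.6 FPKM at 1 ug/ml and at 21.2, 22.7 and 17.8 FPKM at 10 ug/ml. The groups were separate even with replicate B of the untreated plates included. CHAC1 rose by 4.71 (SE 0.54, adjusted p = 6.7e-06) at 1 ug/ml and by 3.07 (SE 0.54, adjusted p = 0.0003) at 10 ug/ml. Without that plate the changes were 5.70 (SE 0.17) and 4.06 (SE 0.17).

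SESN2, sestrin 2, restrains mTORC1 when leucine is scarce. It was at 6.23, 9.69 and 6.41 FPKM in untreated B11, at 35.5, 37.5 and 36.7 FPKM at 1 ug/ml and at 13.6, 14.1 and 14.3 FPKM at 10 ug/ml. The 3 groups were separate, and the plates within each treated group lay within a narrow band. SESN2 rose by 2.18 (SE 0.13, adjusted p = 5.5e-09) at 1 ug/ml and by 0.85 (SE 0.13, adjusted p = 8.4e-05) at 10 ug/ml.

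PPP1R15A (GADD34), the phosphatase subunit that removes phosphate from eIF2, changed little in size. It was at 14.4, 14.6 and 14.6 FPKM in untreated B11, at 24.1, 24.3 and 23.1 FPKM at 1 ug/ml and at 17.6, 20.4 and 15.1 FPKM at 10 ug/ml. All treated plates lay above all untreated ones. PPP1R15A rose by 0.68 (SE 0.10, adjusted p = 6.2e-05) at 1 ug/ml and by 0.26 (SE 0.10, adjusted p = 0.044) at 10 ug/ml. The call at the higher dose was lost in 17 of 26 alternatives, among them the fit without replicate B of untreated B11 (adjusted p = 0.081).

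DDIT4 (REDD1), another brake on mTORC1, was at 11.1, 12.5 and 13.9 FPKM in untreated B11, at 181, 173 and 177 FPKM at 1 ug/ml and at 68.3, 90.3 and 56.2 FPKM at 10 ug/ml. Replicate B of untreated B11 was not the highest plate here, and the 3 groups were separate. DDIT4 rose by 3.73 (SE 0.15, adjusted p = 6.6e-11) at 1 ug/ml and by 2.41 (SE 0.15, adjusted p = 5.8e-09) at 10 ug/ml. DDIT4-AS1, which shares 847 exonic bases on the opposite strand, averaged 36.7 FPKM at 1 ug/ml and 7.07 in untreated B11. EIF4EBP1, the cap-binding repressor 4E-BP1, rose by 2.21 (SE 0.16) at 1 ug/ml and by 1.80 (SE 0.16) at 10 ug/ml.

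**Figure D4:**
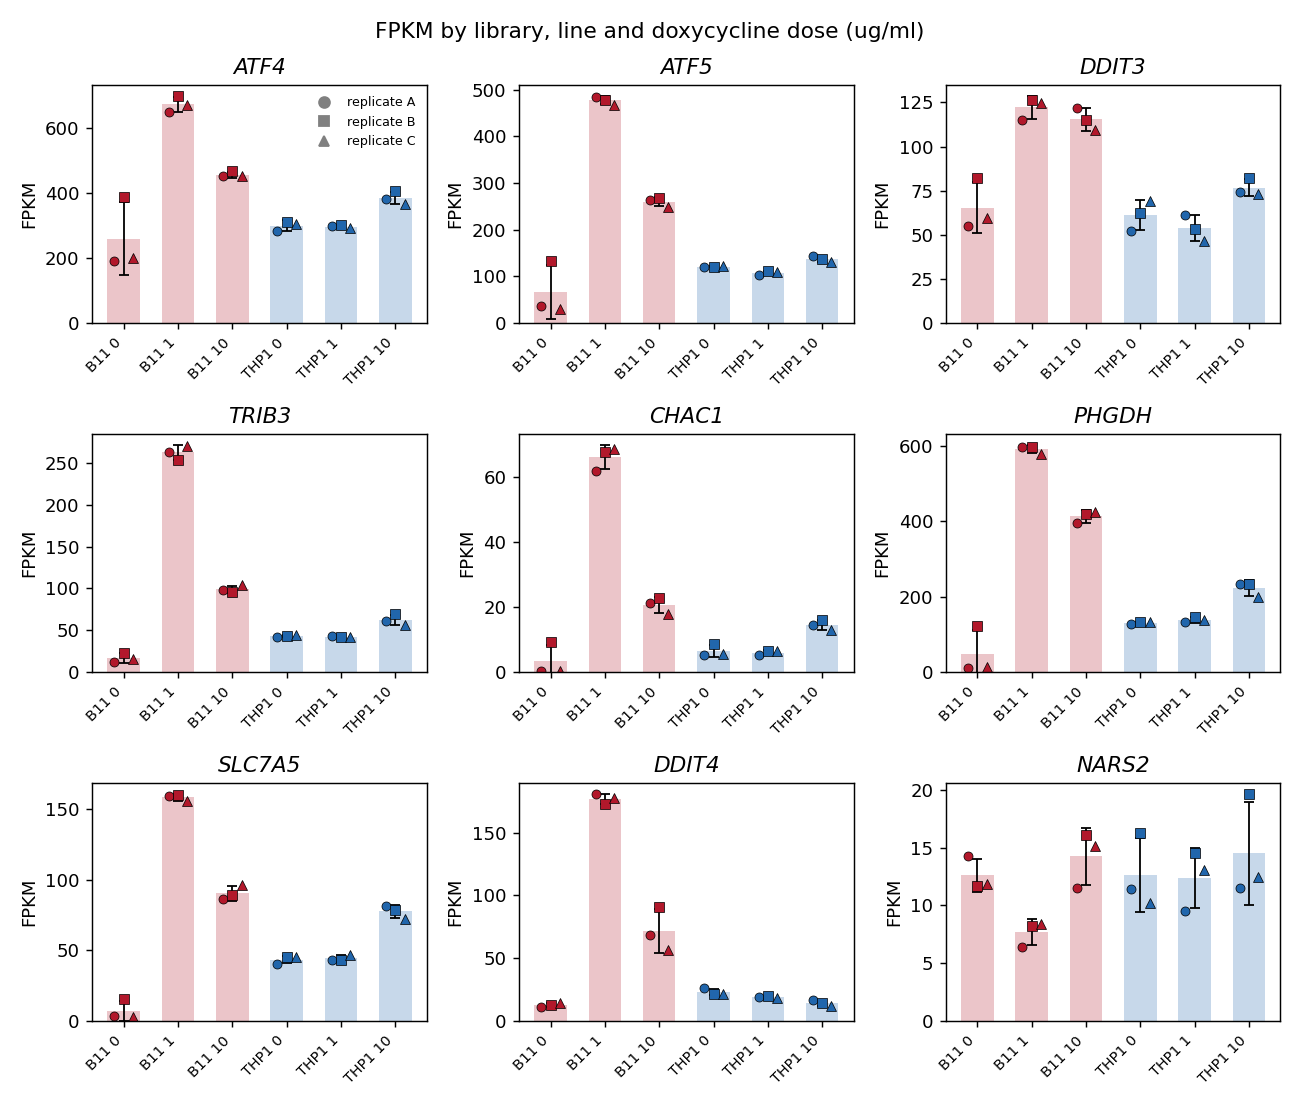
FPKM of 9 of the genes in every library; bars are means and error bars SD of 3 libraries, symbols mark replicates A, B and C, red is B11 and blue is THP1, each at 0, 1 and 10 ug/ml doxycycline. For 7 of the 9 the bars are highest in B11 at 1 ug/ml by a wide margin, DDIT3 is nearly as high at 10 ug/ml, and NARS2 is lowest in B11 at 1 ug/ml.

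All 8 genes of amino acid synthesis rose at both doses, with medians of 2.45 at 1 ug/ml and 2.16 at 10 ug/ml. GPT2, the mitochondrial alanine aminotransferase, was at 1.199, 4.40 and 2.07 FPKM in untreated B11, at 42.2, 47.5 and 41.8 FPKM at 1 ug/ml and at 32.0, 28.5 and 32.9 FPKM at 10 ug/ml. No treated plate came near an untreated one. GPT2 rose by 3.75 (SE 0.23, adjusted p = 6.1e-09) at 1 ug/ml and by 3.27 (SE 0.23, adjusted p = 2.3e-08) at 10 ug/ml.

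ASNS, which makes asparagine and whose promoter is printed above, was at 13.6, 21.8 and 13.2 FPKM in untreated B11, at 120.3, 117 and 117 FPKM at 1 ug/ml and at 76.1, 83.8 and 82.7 FPKM at 10 ug/ml. The groups lay apart. ASNS rose by 2.83 (SE 0.20, adjusted p = 4.4e-08) at 1 ug/ml and by 2.28 (SE 0.20, adjusted p = 3.5e-07) at 10 ug/ml.

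The 3 enzymes of serine synthesis, PHGDH, PSAT1 and PSPH, all rose. PHGDH was at 10.99, 121 and 11.8 FPKM in untreated B11, at 598, 598 and 579.9 FPKM at 1 ug/ml and at 395, 419 and 426 FPKM at 10 ug/ml. PSAT1, the second enzyme of the pathway, was at 6.48, 43.9 and 6.90 FPKM in untreated B11, at 234, 233 and 221 FPKM at 1 ug/ml and at 171, 180.2 and 195 FPKM at 10 ug/ml. In both genes replicate B of untreated B11 was several times the other untreated plates and still below every treated plate. PHGDH rose by 4.48 (SE 0.58, adjusted p = 2.2e-05) at 1 ug/ml and by 3.96 (SE 0.58, adjusted p = 5.7e-05) at 10 ug/ml, and by 5.58 and 5.06 (SE 0.07 each) without that plate.

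PSPH, the last enzyme of serine synthesis, was at 9.93, 15.6 and 14.3 FPKM in untreated B11, at 59.7, 56.7 and 58.3 FPKM at 1 ug/ml and at 34.4, 36.6 and 39.4 FPKM at 10 ug/ml. Treated plates lay above untreated ones, and those at 1 ug/ml above those at 10 ug/ml. PSPH rose by 2.08 (SE 0.14, adjusted p = 2.3e-08) at 1 ug/ml and by 1.42 (SE 0.14, adjusted p = 1e-06) at 10 ug/ml; its pseudogene PSPHP1 reached 20.2 FPKM, and reads may have been divided between them. PYCR1 and ALDH18A1, enzymes of proline synthesis, rose by 1.98 (SE 0.17) and 0.54 (SE 0.15) at 1 ug/ml. CTH, which makes cysteine, stayed under 10 FPKM in all libraries and rose by 1.84 (SE 0.28) at 1 ug/ml.

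The 4 one-carbon genes, which carry the mitochondrial arm of folate metabolism, rose together, with medians of 2.22 at 1 ug/ml and 1.95 at 10 ug/ml. MTHFD2 was at 52.9, 85.6 and 53.8 FPKM in untreated B11, at 433, 389 and 394 FPKM at 1 ug/ml and at 249.6, 304 and 289 FPKM at 10 ug/ml. The 3 groups were separate. MTHFD2 rose by 2.68 (SE 0.14, adjusted p = 1.2e-09) at 1 ug/ml and by 2.15 (SE 0.14, adjusted p = 1.1e-08) at 10 ug/ml.

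SHMT2, which moves the carbon of serine onto folate, was at 90.9, 182 and 96.4 FPKM in untreated B11, at 423, 437 and 427 FPKM at 1 ug/ml and at 392, 455 and 423 FPKM at 10 ug/ml. The doses overlapped each other and lay above the untreated plates. SHMT2 rose by 1.87 (SE 0.18, adjusted p = 9.6e-07) at 1 ug/ml and by 1.85 (SE 0.18, adjusted p = 8.4e-07) at 10 ug/ml. MTHFD1L, which releases formate, was at 10.6, 19.1 and 8.59 FPKM in untreated B11, at 65.0, 53.0 and 57.4 FPKM at 1 ug/ml and at 55.0, 52.5 and 52.9 FPKM at 10 ug/ml. It too overlapped between the doses, and it rose by 2.18 (SE 0.19, adjusted p = 4.5e-07) at 1 ug/ml and by 2.06 (SE 0.19, adjusted p = 6.4e-07) at 10 ug/ml. ALDH1L2, which oxidises formyl folate, rose by 2.26 (SE 0.45) and 1.76 (SE 0.45), with 19.8 FPKM in replicate B of untreated B11 and 2.84 and 3.20 FPKM in replicates A and C.

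All 8 amino acid transporters rose at both doses, with medians of 1.74 at 1 ug/ml and 1.28 at 10 ug/ml. SLC7A5 (LAT1), the carrier of large neutral amino acids, was at 3.45, 15.2 and 2.51 FPKM in untreated B11, at 159.8, 160.2 and 156 FPKM at 1 ug/ml and at 86.2, 89.1 and 96.4 FPKM at 10 ug/ml. The 3 groups were separate by wide gaps. SLC7A5 rose by 4.66 (SE 0.37, adjusted p = 1.2e-07) at 1 ug/ml and by 3.85 (SE 0.37, adjusted p = 7.1e-07) at 10 ug/ml.

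Its partner SLC3A2 (the 4F2 heavy chain), which starts from a higher level, was at 117, 136 and 78.2 FPKM in untreated B11, at 349, 371 and 340.3 FPKM at 1 ug/ml and at 236, 249.7 and 231 FPKM at 10 ug/ml. The 3 groups were separate. SLC3A2 rose by 1.71 (SE 0.14, adjusted p = 1.8e-07) at 1 ug/ml and by 1.14 (SE 0.14, adjusted p = 9.4e-06) at 10 ug/ml. SLC6A9 (GLYT1), a glycine carrier, was nearly silent in untreated B11, at 0.0615, 1.81 and 0 FPKM, and was at 17.7, 16.02 and 16.9 FPKM at 1 ug/ml and at 6.74, 6.82 and 6.46 FPKM at 10 ug/ml. It rose by 3.64 (SE 0.30, adjusted p = 2.1e-07) at 1 ug/ml and by 2.41 (SE 0.30, adjusted p = 1.2e-05) at 10 ug/ml.

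The other transporters rose by smaller amounts. At 1 ug/ml the changes were 1.99 for the cationic carrier SLC7A1, 1.77 for the glutamine carrier SLC1A5, 1.42 for the neutral amino acid carrier SLC1A4, 1.39 for SLC38A2 (SNAT2) and 1.27 for the cystine carrier SLC7A11, with SE between 0.13 and 0.28. SLC7A11 stayed at or below 2.89 FPKM in all libraries, a level at which the offset of 1 understates its change.

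Among the secreted factors, STC2 (stanniocalcin 2) was at 0, 0.437 and 0.303 FPKM in untreated B11, at 12.7, 13.5 and 12.2 FPKM at 1 ug/ml and at 4.17, 3.92 and 3.65 FPKM at 10 ug/ml. The groups were separate. STC2 rose by 3.49 (SE 0.31, adjusted p = 4.1e-07) at 1 ug/ml and by 1.99 (SE 0.31, adjusted p = 9e-05) at 10 ug/ml. GDF15, a stress-induced member of the TGF-beta family, was at 4.07, 0.412 and 0.081 FPKM in untreated B11, at 12.7, 15.6 and 20.4 FPKM at 1 ug/ml and at 7.96, 3.89 and 4.24 FPKM at 10 ug/ml. Replicate A of untreated B11 overlapped the plates at 10 ug/ml. GDF15 rose by 3.10 (SE 0.44, adjusted p = 4.7e-05) at 1 ug/ml and by 1.63 (SE 0.44, adjusted p = 0.0071) at 10 ug/ml.

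The last group was mixed. CCPG1, a receptor for selective autophagy of the endoplasmic reticulum, was at 25.6, 43.2 and 31.3 FPKM in untreated B11, at 113, 104 and 95.6 FPKM at 1 ug/ml and at 61.7, 64.5 and 72.3 FPKM at 10 ug/ml. XPOT, which exports tRNA from the nucleus, was at 33.5, 79.6 and 35.4 FPKM in untreated B11, at 118, 112 and 123 FPKM at 1 ug/ml and at 108, 102 and 119.9 FPKM at 10 ug/ml. In both genes the treated plates lay above all untreated plates. CCPG1 rose by 1.65 (SE 0.22, adjusted p = 3e-05) at 1 ug/ml and by 0.99 (SE 0.22, adjusted p = 0.0019) at 10 ug/ml. XPOT rose by 1.35 (SE 0.22, adjusted p = 0.00019) at 1 ug/ml and by 1.25 (SE 0.22, adjusted p = 0.00031) at 10 ug/ml.

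VLDLR (a lipoprotein receptor) and NARS2 (the mitochondrial asparaginyl-tRNA synthetase) did not follow the set. VLDLR was at 53.1, 60.3 and 48.0 FPKM in untreated B11, at 53.1, 50.5 and 50.3 FPKM at 1 ug/ml and at 54.9, 54.0 and 51.7 FPKM at 10 ug/ml. The groups overlapped. At 1 ug/ml the difference was -0.06 (SE 0.08, adjusted p = 0.59), and at 10 ug/ml it was 0.00 (SE 0.08, adjusted p = 0.99). NARS2 was at 14.3, 11.7 and 11.9 FPKM in untreated B11, at 6.35, 8.18 and 8.41 FPKM at 1 ug/ml and at 11.5, 16.1 and 15.2 FPKM at 10 ug/ml. The plates at 1 ug/ml were the low ones, and NARS2 fell by 0.66 (SE 0.22, adjusted p = 0.028) there. That call was lost in 4 of 27 alternatives, among them the fits without replicate A of either group. Its difference at 10 ug/ml was 0.16 (SE 0.22, adjusted p = 0.61).

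Between the treated doses of B11, most of the set was lower at 10 than at 1 ug/ml. Of the 38 genes, 16 fell and 1 rose (NARS2, by 0.81, SE 0.22, adjusted p = 0.024), against 7.12% of all genes lower and 5.69% higher (12.8% called). All 3 plates at 10 ug/ml lay below all 3 at 1 ug/ml for 29 of the 38 genes, against 18% of all genes. The median change was -0.55, and that of all genes -0.01. Without replicate B of untreated B11, which is in neither group but adds to the shared spread, 25 fell and 1 rose, against 7.39% of all genes lower and 5.95% higher; without replicate C at 10 ug/ml 10 fell, and without both replicates B and C at 1 ug/ml, where the lone plate is assumed to vary like the other groups, 4 fell.

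The drop at 10 ug/ml was not of one size, and roles were not tested against each other. NUPR1 fell by 2.12 (SE 0.40, adjusted p = 0.0029), STC2 by 1.49 (SE 0.31, adjusted p = 0.005), TRIB3 by 1.40 (SE 0.15, adjusted p = 2.3e-05), and both DDIT4 (SE 0.15) and SESN2 (SE 0.13) by 1.32. For SHMT2, PYCR1, ALDH18A1, XPOT and MTHFD1L the change between these doses lay between -0.12 and 0.06, and none of them passed the test in either fit. Of the 6 feedback and brake genes 4 fell, of the 8 transporters 5 fell, and of the 8 amino acid synthesis genes 1 fell (PSPH, by 0.65, SE 0.14, adjusted p = 0.0068). Those counts became 6 of 6, 6 of 8 and 4 of 8 when replicate B of untreated B11 was out of the fit, the synthesis genes then being PHGDH (adjusted p = 0.00015), PSAT1 (0.0035), PSPH (0.0048) and GPT2 (0.032). The transcription factors that fell numbered 3 of 6, or 5 of 6 without that plate. As a description of means, B11 at 10 ug/ml kept 22.5% of the FPKM gain seen at 1 ug/ml for SESN2, 27.6% for CHAC1 and 33.4% for TRIB3, and 67.2% for PHGDH, 77.6% for PSAT1 and 98.1% for SHMT2.

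In THP1, which holds no inducible NRAS, the set served to measure what doxycycline alone does in the parent line. At 1 against 0 ug/ml limma called 0 of the 38 genes, where 0.0114% of all genes were called, 0.00570% higher and 0.00570% lower. It also called 0 genes without replicate B of untreated B11, where 0.00570% of all genes were higher and 0.0114% lower. At an unadjusted p under 0.05 limma gave 1 higher and 1 lower in the fit of 18 libraries. The median change was -0.01.

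At 10 against 0 ug/ml 1 gene rose and 1 fell in THP1, against 0.0968% of all genes higher and 0.923% lower (1.02% called). At an unadjusted p under 0.05 limma gave 14 higher and 2 lower, a threshold at which all genes were not counted. ASNS was at 29.9, 29.4 and 24.9 FPKM at 10 ug/ml, against 15.1, 14.1 and 14.02 FPKM without doxycycline, and rose by 0.91 (SE 0.20, adjusted p = 0.049). DDIT4 was at 16.3, 13.8 and 12.01 FPKM at 10 ug/ml, against 26.0, 21.4 and 21.5 FPKM without doxycycline, and fell by 0.68 (SE 0.15, adjusted p = 0.043). Neither group pair overlapped. All 3 plates at 10 ug/ml lay above all 3 untreated plates for 23 of the 38 genes and below them for 2, against 6.73% and 9.12% of all genes. The median change was 0.39, and that of all genes 0.00.

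The THP1 call count rested on a plate of the other line. Without replicate B of untreated B11 in the fit, 15 genes rose and 1 fell in THP1 at 10 against 0 ug/ml. Of all genes, 0.251% rose and 0.985% fell in that fit, and the changes themselves were unaltered. The plate was picked by the values of these genes, so count and share are not on an even footing. The genes that then rose were ATF4, TRIB3, SESN2, CHAC1, EIF4EBP1, ASNS, PHGDH, PSAT1, GPT2, SHMT2, MTHFD2, MTHFD1L, SLC7A5, SLC6A9 and XPOT. PSAT1 was at 139, 129.6 and 124 FPKM at 10 ug/ml, against 60.9, 57.2 and 62.6 FPKM without doxycycline, a change of 1.11 with adjusted p = 0.38 in the fit of 18 libraries and 2.1e-06 without that plate. SLC7A5 was at 81.7, 78.8 and 72.4 FPKM, against 40.3, 44.9 and 45.1 FPKM, a change of 0.82 with adjusted p = 0.44 and 0.00035. With the fit limited to the THP1 groups compared, 4 rose and none fell, and leaving out any 1 of the THP1 plates at 10 or 0 ug/ml gave 0 higher. At 10 against 1 ug/ml in THP1 1 gene rose (SESN2, by 0.69, SE 0.13) and none fell, where 0.0513% of all genes rose and 0.245% fell (0.296% called). When replicate B of untreated B11 was left out 12 rose there, against 0.205% of all genes higher and 0.433% lower; by unadjusted p under 0.05, 14 were higher and 1 lower.

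**Figure D5:**
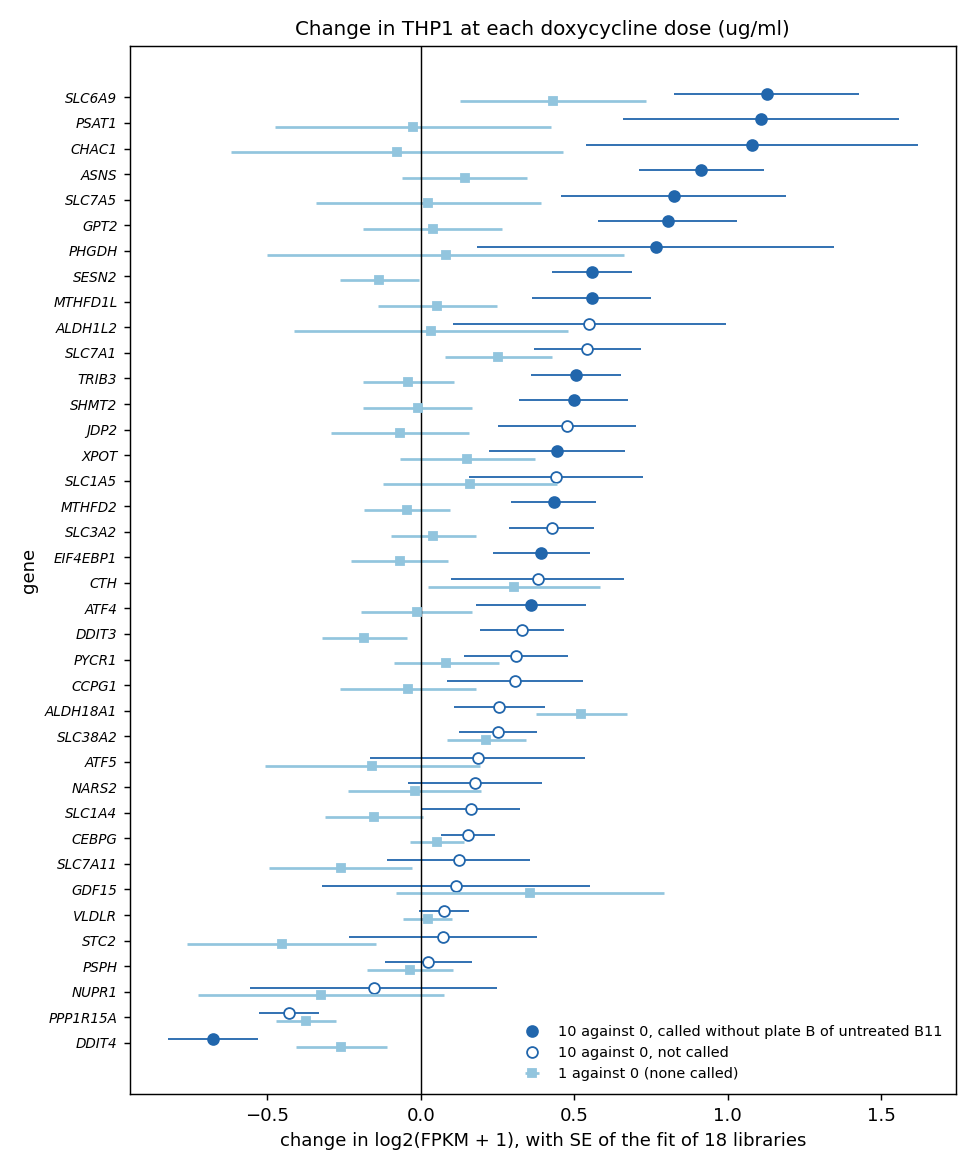
Changes of the 38 tested genes in THP1 in log2(FPKM + 1), with SE of the fit of 18 libraries; circles are 10 against 0 ug/ml, filled where called in the fit without replicate B of untreated B11, and squares are 1 against 0 ug/ml. Of the circles, 15 filled ones lie to the right of 0 and DDIT4 lies at -0.68, while the squares have a median of -0.01.

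The responses of B11 and THP1 to the same dose differed for most of the set. The difference was tested as the change in B11 minus the change in THP1. For 1 against 0 ug/ml it was positive and passed the test in 35 of the 38 genes and negative in none, against 14.3% and 11.6% of all genes (25.9% called), and no gene was lower at an unadjusted p under 0.05. The count of 35 was the same with replicate B of untreated B11 left out, where 13.7% of all genes were positive and 10.8% negative. For 10 against 0 ug/ml it was positive in 19 and negative in none, against 16% and 13.8% (29.8% called), and at an unadjusted p under 0.05 it was positive in 26 and negative in 0. With replicate B of untreated B11 left out, 29 were positive, against 15.6% of all genes positive and 13% negative. For 10 against 1 ug/ml it was negative in 15 and positive in none, against 2.39% and 2.25% (4.64% called), with 27 negative and 0 positive at an unadjusted p under 0.05. In that comparison 27 were negative without replicate B of untreated B11, where 2.68% of all genes were negative and 2.39% positive, and 8 without replicate A of THP1 at 10 ug/ml.

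In the fit of 18 libraries, 2 genes were called in opposite directions in the lines, and the THP1 call of each was lost in 17 of 26 alternatives. Opposite calls were not counted over all genes, so no share stands beside the counts here. DDIT4 rose in B11 and fell in THP1 at 10 against 0 ug/ml, a difference of 3.09 (SE 0.21, adjusted p = 4.6e-08). SESN2 fell in B11 and rose in THP1 at 10 against 1 ug/ml, a difference of -2.02 (SE 0.18, adjusted p = 2.5e-05): it was at 9.53, 10.4 and 9.93 FPKM in THP1 at 10 ug/ml, against 5.93, 5.91 and 5.50 FPKM at 1 ug/ml. The number of opposite calls rested on replicate B of untreated B11: without that plate 11 genes were lower in B11 and higher in THP1 at 10 against 1 ug/ml, namely ATF4, ATF5, TRIB3, SESN2, CHAC1, EIF4EBP1, PHGDH, PSAT1, GPT2, MTHFD2 and SLC7A5. PSAT1, for one, changed by -0.33 (adjusted p = 0.0035) in B11 and by 1.13 (adjusted p = 1.6e-06) in THP1 in that fit. PPP1R15A was at 12.2, 11.7 and 11.4 FPKM in THP1 at 10 ug/ml, against 15.9, 16.3 and 16.2 FPKM without doxycycline, with a change of -0.43 (SE 0.10, adjusted p = 0.053), and its response in B11 exceeded this by 0.69 (SE 0.14, adjusted p = 0.0015).

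At equal dose the lines changed places. Without doxycycline, 20 of the 38 genes were lower in B11 than in THP1 and 1 was higher, against 23.6% and 23.5% of all genes (47.1% called), with a median of -0.65. SLC7A5 was at 3.45, 15.2 and 2.51 FPKM in untreated B11, against 40.3, 44.9 and 45.1 FPKM in untreated THP1, a difference of -2.81 (SE 0.37, adjusted p = 1.5e-05). GPT2 was at 1.199, 4.40 and 2.07 FPKM in B11, against 20.0, 24.3 and 18.7 FPKM in THP1, a difference of -2.72 (SE 0.23, adjusted p = 1.4e-07). In both genes every B11 plate was below every THP1 plate. The 1 higher gene was VLDLR, by 0.38 (SE 0.08, adjusted p = 0.0013). Without replicate B of untreated B11, 26 were lower and 1 higher, where 21.9% of all genes were lower and 21.4% higher, ATF4 among them at -0.62 (SE 0.06, adjusted p = 8.2e-07), and without replicate A of untreated B11 4 were higher.

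ASNS, DDIT3, CEBPG, SESN2 and CCPG1 gave differences between 0.08 and 0.48 in untreated B11 against untreated THP1, and none of these passed the test. The sign turned without replicate B of untreated B11 for ASNS (-0.09), DDIT3 (-0.09) and SESN2 (-0.02), again with no call. ASNS was at 13.6, 21.8 and 13.2 FPKM in untreated B11, against 15.1, 14.1 and 14.02 FPKM in untreated THP1, groups that overlapped, with a difference of 0.13 (SE 0.20, adjusted p = 0.65). CCPG1 was at 25.6, 43.2 and 31.3 FPKM in B11, against 17.1, 29.4 and 24.3 FPKM in THP1, with a difference of 0.48 (SE 0.22, adjusted p = 0.087).

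At 1 ug/ml 34 of the 38 genes were higher in B11 than in THP1 and 1 was lower, against 15% and 14.8% of all genes (29.8% called), with a median of 1.22. CHAC1 was at 61.8, 67.5 and 68.6 FPKM in B11, against 5.05, 6.47 and 6.31 FPKM in THP1, a difference of 3.27 (SE 0.54, adjusted p = 0.00032). DDIT4 was at 181, 173 and 177 FPKM in B11, against 19.0, 19.9 and 18.05 FPKM in THP1, a difference of 3.16 (SE 0.15, adjusted p = 1.9e-09). The lines did not overlap in either gene. The lower gene was NARS2, at -0.62 (SE 0.22, adjusted p = 0.044), a call lost in 12 of 27 alternatives. One of these was the fit without replicate B of untreated B11, where 34 genes were higher and 0 lower against 15.1% of all genes in each direction.

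At 10 ug/ml 14 were higher in B11 than in THP1 and 1 was lower, against 16.4% and 16% of all genes (32.4% called), with a median of 0.45. The highest differences were 2.25 (SE 0.15, adjusted p = 3.5e-08) for DDIT4, 1.496 (SE 0.20, adjusted p = 4.8e-05) for ASNS and 1.36 (SE 0.44, adjusted p = 0.027) for GDF15. None of the 8 transporters passed the test at this dose, with 0 higher and 0 lower at an unadjusted p under 0.05, and their median difference was 0.04. One of them, SLC6A9, was higher without replicate B of untreated B11, by 0.59 (adjusted p = 0.015). NUPR1 was the lower gene, at 3.35, 6.97 and 1.72 FPKM in B11, against 10.5, 14.5 and 11.1 FPKM in THP1, a difference of -1.51 (SE 0.40, adjusted p = 0.0094). Without replicate B of untreated B11, 24 were higher and 1 lower, against 16.7% of all genes higher and 16.1% lower.

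Other parts of the stress pathway, taken from lists that hold none of the 40 and share a few genes with each other, were measured in B11 at 1 against 0 ug/ml, where 19.8% of all genes rose and 17.3% fell. These lists too were chosen with earlier results of these data known. In the fit without replicate B of untreated B11 no count of these lists moved by more than 1 gene, which took the ATF4 targets that fell to 0. Of 18 other reported ATF4 targets tested, 14 rose and 1 fell at 1 against 0 ug/ml, with a median of 1.44. PCK2 (mitochondrial phosphoenolpyruvate carboxykinase) averaged 167 ± 9.00 FPKM at 1 ug/ml, against 23.1 ± 12.03 in untreated B11 (SD, n = 3 each), a rise of 2.91 (SE 0.23, adjusted p = 1.4e-07). LONP1 (a mitochondrial protease) averaged 266 ± 28.5 FPKM at 1 ug/ml, against 60.8 ± 10.4 in untreated B11, a rise of 2.12 (SE 0.11, adjusted p = 1.5e-09). PMAIP1 (NOXA, a promoter of cell death) rose by 1.62 (SE 0.12, adjusted p = 4e-08).

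Of 18 genes of the ATF6 and IRE1 branches, which answer misfolded protein in the endoplasmic reticulum through sensors other than the eIF2 kinase PERK, 15 rose and none fell at 1 against 0 ug/ml, with a median of 0.62 and 15 higher and 0 lower at an unadjusted p under 0.05. HSPA5 (BiP) averaged 166 ± 2.21 FPKM at 1 ug/ml, against 66.6 ± 3.65 in untreated B11, a rise of 1.30 (SE 0.06, adjusted p = 1.6e-10). XBP1 averaged 188 ± 9.25 FPKM at 1 ug/ml, against 50.2 ± 9.33 in untreated B11, a rise of 1.90 (SE 0.10, adjusted p = 1.2e-09), and HYOU1 rose by 1.56 (SE 0.06). HSPA5 stayed below its level in untreated THP1, where it averaged 221 ± 11.6 FPKM. The B11 level at 1 ug/ml of XBP1 was above the 111 ± 3.69 FPKM of untreated THP1. These pairs differ in dose as well as line and were not tested. At 1 ug/ml, 3 of the 18 genes were higher and 8 lower in B11 than in THP1 (median -0.15), against 15% and 14.8% of all genes. Without doxycycline 2 were higher and 13 lower (median -0.81), against 23.5% and 23.6%. With replicate B of untreated B11 left out, the lower counts were 9 and 12, against 15.1% and 21.9% of all genes.

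Of 14 mitochondrial chaperones and proteases 11 rose and 1 fell, with HSPA9 up by 1.76 (SE 0.09) and HSPD1 by 1.22 (SE 0.08). Of 20 genes for the eIF2 kinases, eIF2 and its exchange factor eIF2B, 8 rose and 2 fell, with a median of 0.20; EIF2S1, the subunit that is phosphorylated, rose by 1.04 (SE 0.12, adjusted p = 8.2e-06), EIF2S2 by 0.66 (SE 0.12) and EIF2B2 by 0.57 (SE 0.11). Among 19 other basic leucine zipper partners 8 rose and 4 fell, with ATF3 up by 2.44 (SE 0.30) and CEBPA down by 0.49 (SE 0.06).

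Neighbouring metabolic lists were split. Of 19 other amino acid enzymes 11 rose and 3 fell, and ASS1 (argininosuccinate synthase) rose by 2.93 (SE 0.24) and AHCY by 0.70 (SE 0.05). Of 15 other one-carbon enzymes 8 rose and 2 fell, and TYMS (thymidylate synthase) rose by 3.02 (SE 0.12), SLC19A1 by 0.89 (SE 0.08) and MTHFD1 by 1.31 (SE 0.13). Of 18 other amino acid transporters 7 rose and 4 fell, with a median of 0.25, and the median of the 8 transporters in the set was 1.74; the difference was not tested. SLC38A1 rose by 2.08 (SE 0.22), SLC38A5 by 1.51 (SE 0.15) and SLC43A3 by 1.12 (SE 0.13). In THP1 at 10 against 0 ug/ml, where 0.0968% of all genes rose and 0.923% fell, these 8 lists gave between 0 and 1 higher calls each, and between 0 and 2 without replicate B of untreated B11, with 2 lower calls among the basic leucine zipper partners in both fits. At an unadjusted p under 0.05 the higher counts were 5 of 19 other amino acid enzymes, 3 of 18 other ATF4 targets, 3 of 20 eIF2 genes, 2 of 14 mitochondrial chaperones and proteases and 0 in the other lists. The lower counts were 5 of 18 genes of the ATF6 and IRE1 branches, 5 of 19 basic leucine zipper partners and at most 1 in any other list.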

How the data were processed

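RNA of 18 plates was sequenced. The deposited table holds 1 value per Ensembl gene ID and library, and its header names no unit. The submitters' processing notes name HISAT2, Cuffnorm and GRCh38; the deposited values are taken as FPKM because Cuffnorm writes FPKM tables and the values are never negative, not whole and differ in their sums between libraries. Versions, annotation and strandedness were not given in the sources used here. Overlapping genes may therefore share reads: 15 of the 40 genes overlap exons of a gene on the opposite strand and 8 have named pseudogenes. Names came from GENCODE release 29.

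Depth was estimated from the steps that whole fragments leave in low FPKM values; between 84.5% and 89.7% of those values lay within 0.15 fragments of a whole number. No counts were used. Genes at 1 FPKM or more in at least 3 of 18 libraries were kept. limma 3.58.1 (R 4.3.3) was fitted to log2(FPKM + 1) of all 6 groups, with an intensity trend (12 residual degrees of freedom). Each of 12 comparisons was adjusted by Benjamini-Hochberg, with calls at an adjusted p under 0.05. The fit was tested on simulated data. Alternatives covered pseudocount, filter, scaling, moderation, libraries and replicate letter. Figures were drawn with matplotlib 3.10.9.

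The members and lists were chosen with earlier results of these data known. The 8 central genes were given per library, with the 3 of smallest p at 1 against 0 ug/ml in B11 from each other role, every gene not called there and those with opposite calls in the lines; PHGDH, PSAT1, NUPR1 and other values were added after they were seen. Lists gave up to 3 called genes each, and ATF3 and SLC38A1 stand among genes added in the same way.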

Additional observations from a re-analysis of the deposited data

Results flagged for a closer look

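The response to doxycycline differed between the lines, by the tested difference of the change in B11 minus the change in THP1, and these results are listed because of that test. It was positive for 35 genes at 1 against 0 ug/ml and for 19 at 10 against 0 ug/ml, and negative for 15 at 10 against 1 ug/ml, out of 38 tested. DDIT4 moved in opposite directions at 10 against 0 ug/ml, with a difference of 3.09 on the log2 scale. SESN2 did so at 10 against 1 ug/ml, with a difference of -2.02. The THP1 call of each was lost in 17 of 26 alternatives, and without replicate B of untreated B11 11 genes, SESN2 among them, had opposite calls at 10 against 1 ug/ml. Opposite calls were not counted over all genes. THP1 plates carry neither the inducible NRAS nor Cas9, so clone, vector and NRAS cannot be told apart in these differences.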

How the results depend on the processing

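Counts are of 38 genes. No gene call reversed under any alternative, and 36 of 37 calls at 1 against 0 ug/ml in B11 and 27 of 34 at 10 against 0 ug/ml held under all of them, against 4 of 17 at 10 against 1 ug/ml. The counts that moved by over 1.5 times are these; the cause was not tested. In B11 at 1 against 0 ug/ml the 1 lower call became 0 with no filter and without replicates B and C at 1 ug/ml together; those replicates out also gave 0 higher and 4 lower at 10 against 1 ug/ml, 0 lower in B11 against THP1 at 1 ug/ml and 3 negative differences of response at 10 against 1 ug/ml. With only the groups compared in the fit, B11 gave 26 lower at 10 against 1 ug/ml, 4 genes rose and 0 fell in THP1 at 10 against 0 ug/ml, in B11 against THP1 24 were higher at 10 ug/ml and 0 lower at 1 ug/ml, and 27 differences of response at 10 against 1 ug/ml were negative. THP1 at 10 against 0 ug/ml gave 0 higher with a pseudocount of 0.1, 0 higher and 0 lower with no filter or no intensity trend, 2 and 2 when a mean of 5 FPKM was required, and 2 lower with median-of-ratios scaling. At 10 against 1 ug/ml in THP1 no filter and no trend gave 0 higher; no filter gave 0 lower in B11 against THP1 at 1 ug/ml.

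Plates of the same replicate letter shared no clear shift between groups (45 correlations of deviations, -0.07 to 0.09). The labels do not say whether letters pair plates, and these correlations cannot show how plates were handled. With a replicate block, B11 gave 36 higher at 1 and 33 at 10 against 0 ug/ml, and THP1 gave 0 higher and 0 lower at 10 against 0 and 0 higher at 10 against 1 ug/ml.

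With 1 library left out, counts ranged as follows: in B11, 32 to 34 higher at 10 and 0 to 1 lower at 1 against 0 ug/ml, 0 to 1 higher and 10 to 25 lower at 10 against 1; in THP1, 0 to 15 higher and 0 to 2 lower at 10 against 0, 0 to 12 higher at 10 against 1; in B11 against THP1, 1 to 4 higher and 17 to 26 lower at 0, 33 to 34 higher and 0 to 1 lower at 1, 13 to 24 higher and 0 to 1 lower at 10 ug/ml; and in the difference of response, 18 to 29 positive at 10 against 0 and 8 to 27 negative at 10 against 1.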
